A study of Mus musculus with 6 samples.

Results

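Acetyl-CoA supply and histone acetyltransferases were followed through 10 genes, 4 whose products make or move acetyl-CoA (*Acly*, *Acss1*, *Acss2* and *Slc25a1*) and 6 that encode histone acetyltransferases or coactivators with that activity (*Kat2a*, *Kat2b*, *Ep300*, *Crebbp*, *Kat5* and *Kat7*). They were chosen by function, and their Ensembl gene IDs were matched to mouse symbols in the GENCODE vM21 annotation of mm10. All 10 were among the 46983 genes listed, and all 10 passed the filter of a mean FPKM of at least 0.5 that left 13312 genes for testing. FPKM, the fragments counted for a gene scaled by its length and by the reads of its library, is the unit of every level given here.

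Acetyl-CoA is the donor of the acetyl group that histone acetyltransferases place on lysines of histone tails. Most of it is made inside mitochondria, from pyruvate or fatty acids, and it does not cross the inner membrane. Its carbon leaves as citrate through the carrier encoded by *Slc25a1*, and ATP-citrate lyase, the product of *Acly*, splits that citrate into acetyl-CoA in the cytosol and nucleus. Acetyl-CoA synthetases form it from acetate instead, *Acss2* encoding the enzyme of cytosol and nucleus and *Acss1* the mitochondrial enzyme. *Kat2a* and *Kat2b* encode the paralogs GCN5 and PCAF, which work in the SAGA and ATAC complexes, *Ep300* and *Crebbp* encode p300 and CBP, which acetylate H3K27 and are recruited by many transcription factors, HIF-1α among them. *Kat5* encodes TIP60 of the NuA4 complex, and *Kat7* encodes HBO1.

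The libraries came from mouse splenic B cells on the C57BL/6 background, 3 labelled WT and 3 labelled *Hif1a* KO, and the comparison asks how the loss of HIF-1α changes the RNA of B cells that are switching to IgA. KO cells carried floxed *Hif1a* alleles and cre recombinase under *Mb1*, a gene active from early B-lineage stages onward. WT cells were from littermates with either 1 floxed allele and cre or 2 floxed alleles without cre, and which of these each WT library was is not given in the sources used here, nor is the age of the mice. In the study's methods, cultured cells were follicular B cells sorted as CD21int CD23+. All cultures ran for 3 days with 5 μg/ml LPS and 10 ng/ml of each of 3 cytokines, TGF-β, IL-5 and BAFF. Nothing in the labels says that the libraries of a group came from separate mice or cultures, so the p-values measure the spread between these libraries, which may be partly technical. The sex-linked transcripts given below show only that KO replicate 2 came from another mouse than KO replicates 1 and 3. The number of reads behind the values, recovered from the smallest steps of the FPKM values, was 37222477, 30955753 and 25973237 for WT replicates 1 to 3 and 25030210, 34356000 and 29869848 for KO replicates 1 to 3.

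*Hif1a*, the targeted gene, had FPKM values of 36.5, 49.8 and 45.8 in WT replicates 1, 2 and 3 and of 46.5, 45.6 and 52.8 in KO replicates 1, 2 and 3. The groups overlapped, and since all exons are counted together, these values do not check whether the floxed part was removed. The label of B cells fitted its markers. All 10 B cell markers were expressed, while the T cell markers other than *Lck* stayed at or below 0.902 FPKM in every library, the highest value being that of *Cd3g* in KO replicate 1. The libraries of a genotype did not all lie together. Over 11564 genes with at least 300 recovered reads in all, WT replicates 2 and 3 were the most alike pair, with a mean chi-square per gene of 5.01, where counting noise alone gives a mean near 1. WT replicate 1 differed from them by 70.9 and 63.2 and from the KO libraries by 12.4 to 26.9. The KO libraries differed from each other by 23.5 to 38.7. For 9 of the 10 genes, WT replicate 1 was nearer to the mean of the KO libraries than to the mean of the other WT libraries, which was also so for 77.5% of the 13312 genes tested. It lay within the range of the KO libraries for 4 of the 10, *Acss1*, *Slc25a1*, *Kat7* and *Kat2a*, and for 64.2% of the genes tested. Whether the title of WT replicate 1 is right, or tubes were exchanged, was not tested, and every KO minus WT value below takes the titles as they are.

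The level of a gene in FPKM depends on the length it is divided by. The lengths behind these values were recovered together with the reads, and they were the mean length of the annotated transcripts, within 1 base, in 64.6% of 9560 genes with several transcripts and over 500 reads, against 2.48% for the longest transcript and 0.533% for all exons joined. Of the 10 genes, 8 had exactly that mean length. *Ep300* was divided by 2183 bases although its longest transcript has 9566, *Kat2b* by 1056 against 4653 and *Acss1* by 1174 against 3618, whereas *Kat2a*, at 3076 against 3269, was barely affected. Ratios between WT and KO within a gene do not depend on this length, but the order of genes does, so levels are given below on the deposited scale and with the same reads divided by the longest transcript. Differences on log2(FPKM + 1) depend on this length slightly, since 1 is added. For *Acss2*, KO minus WT was 0.057 as deposited and 0.045 with the longest transcript.

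On the deposited scale *Acly* was the highest of the 10, with a mean of 145.2 FPKM over the 6 libraries, followed by *Ep300* at 97.7. *Slc25a1* (60.6), *Acss1* (54.8) and *Kat7* (54.1) came next, the range of *Acss1* overlapping those of the other 2, which did not overlap each other. A lower group of *Kat2b* (24.7), *Crebbp* (23.7) and *Kat2a* (21.6) also overlapped, *Kat5* followed at 16.4, and *Acss2* was lowest at 2.84 FPKM. With the longest transcript as length, *Acly* (78.2) and *Acss2* (1.51) kept the ends of the order and the middle changed. *Slc25a1* (30.8) and *Kat7* (30.03) then came after *Acly* with overlapping ranges, *Ep300* fell back to 22.3, within the range of *Kat2a* (20.3), and *Kat2b* went to 5.62, below *Crebbp* at 7.45 in all 6 libraries. The plot of levels on the 2 length scales shows how far each gene moved.

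**Figure D1:**
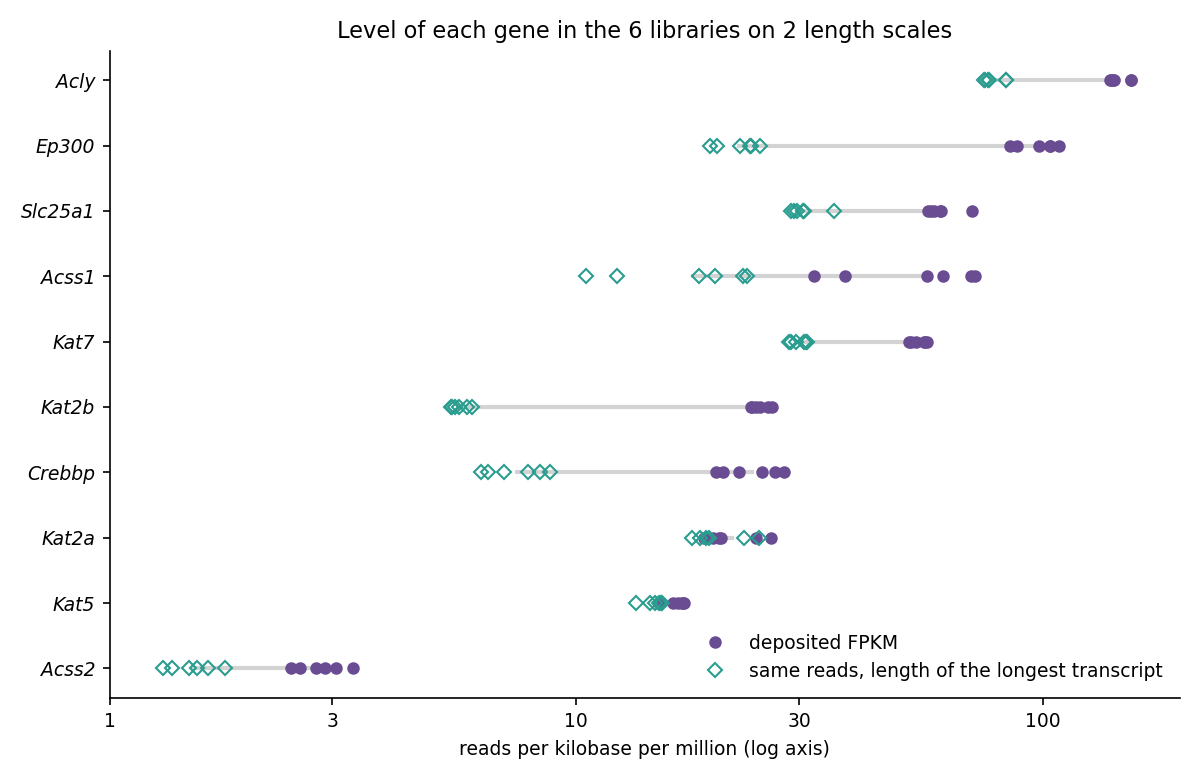
Level of the 10 genes in each of the 6 libraries, in reads scaled by gene length and library size on a log axis, as deposited (filled circles) and with the same reads divided by the longest annotated transcript (open diamonds), the grey line joining the means of the 2 scales. *Ep300* moved from a mean of 97.7 to 22.3 and *Kat2b* from 24.7 to 5.62, while *Kat2a* moved from 21.6 to 20.3.

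Among the genes of acetyl-CoA supply, *Acss1* differed most between libraries and *Acly* very little. *Acss1* (ENSMUSG00000027452, chromosome 2 from 150618105 to 150668500 in mm10, minus strand) had FPKM values of 70.2, 32.3 and 37.7 in WT replicates 1, 2 and 3 and of 56.5, 61.0 and 71.4 in KO replicates 1, 2 and 3. WT replicates 2 and 3 were low and WT replicate 1 lay at the upper end of the KO values, so the groups overlapped, with means of 46.7 ± 20.5 in WT and 63.0 ± 7.64 in KO cells (SD, n = 3 each). These levels rested on 1150 to 3067 reads per library, so that the counting error at the fewest reads was 2.95%, against a coefficient of variation of 29.97% over the 6 libraries. An *Acss1* log2 fold change of 0.50 (KO minus WT on log2(FPKM + 1), SE 0.27, 95% confidence interval −0.15 to 1.14) did not pass the test, with an adjusted p of 0.626 from limma with Benjamini-Hochberg adjustment. It was 0.28 when WT replicate 2 was left out, and the largest of the values with a single library left out was 0.83. *Acly* (ENSMUSG00000020917, chromosome 11 from 100476353 to 100528000, minus strand) had 139.1, 154.6 and 154.4 FPKM in WT and 142.1, 141.3 and 139.6 FPKM in KO replicates 1, 2 and 3. Here WT replicates 2 and 3 were the highest, WT replicate 1 was below every KO library, and the whole range over 6 libraries was 1.11-fold. Its log2 fold change was −0.080 (SE 0.063), and the interval from −0.23 to 0.070 leaves room for no more than a small difference.

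*Slc25a1* (ENSMUSG00000003528, chromosome 16 from 17925223 to 17928219, minus strand) lay between 56.6 and 60.6 FPKM in WT and between 57.5 and 70.3 FPKM in KO libraries, with KO replicate 3 alone above the rest. *Acss2* (ENSMUSG00000027605, chromosome 2 from 155517948 to 155585724, plus strand) was the weakest of the 10, with 2.45 to 3.32 FPKM in WT and 2.77 to 3.05 in KO libraries. It was covered by 122 to 237 reads per library, the counting error at the fewest reads was 9.05%, and its coefficient of variation over the 6 libraries was 11.3%. In addition, 9.12% of its exonic bases are shared with exons of *Acss2os*, *Ggt7* and *Gss* on the other strand, and the strand option of the counting was not stated, so part of these reads may belong to those genes. The log2 fold changes of *Slc25a1*, 0.091 (SE 0.086), and *Acss2*, 0.057 (SE 0.12), were within the spread of the libraries. That of *Slc25a1* rested on single libraries, being 0.0070 without KO replicate 3 and 0.15 without KO replicate 2.

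**Figure D2:**
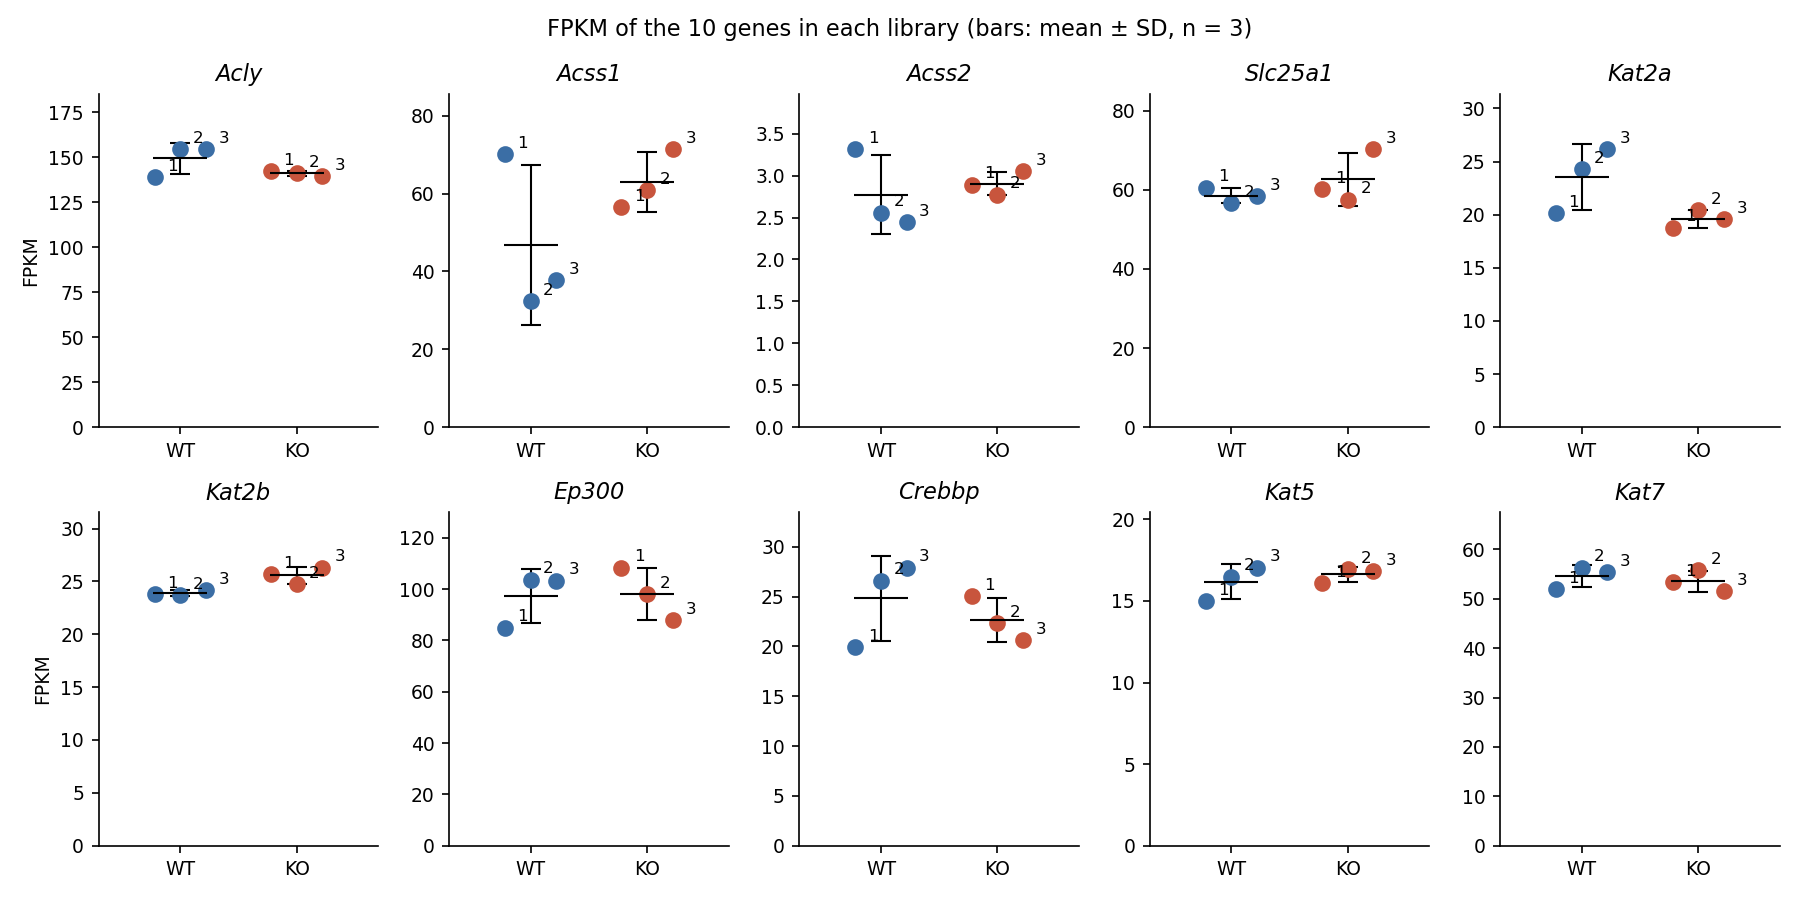
FPKM of the 10 genes in the 3 WT (blue) and 3 KO (red) libraries, each axis starting at 0, with replicate numbers beside the points and black bars for the mean and SD of each group. *Acss1* was at 32.3 and 37.7 in WT replicates 2 and 3 and between 56.5 and 71.4 in the other 4 libraries, and *Kat2b* was the only gene in which no KO value overlapped a WT value.

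Of the acetyltransferase genes, *Kat2a* had the largest difference. *Kat2a* (ENSMUSG00000020918, chromosome 11 from 100704746 to 100712465, minus strand) had FPKM values of 20.2, 24.3 and 26.2 in WT replicates 1, 2 and 3 and of 18.8, 20.4 and 19.6 in KO replicates 1, 2 and 3. WT replicates 2 and 3 were above all other libraries and WT replicate 1 lay within the KO range. The means were 23.5 ± 3.07 in WT and 19.6 ± 0.824 in KO cells (SD, n = 3 each). *Kat2a* thus had a log2 fold change of −0.25 (SE 0.10, 95% confidence interval −0.49 to −0.0013), and the adjusted p of 0.626 from limma missed the threshold. Its paralog *Kat2b* (ENSMUSG00000000708, chromosome 17 from 53566861 to 53672720, plus strand) went the other way, with 23.8, 23.7 and 24.2 FPKM in WT and 25.7, 24.7 and 26.3 FPKM in KO replicates 1, 2 and 3. All KO values were above all WT values, by a small margin, since the lowest KO value was 24.7 and the highest WT value 24.2. Of the 10 genes *Kat2b* alone had every KO value above every WT value, against 4.06% of the genes tested, and 0 of the 10 had every KO value below, against 6.03%. The log2 fold change of *Kat2b* was 0.093 (SE 0.060, adjusted p = 0.646 from limma), and 7.28% of its 50-base sequences also occur in the pseudogene *Kat2b-ps*, whose reads cannot be told apart there.

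*Ep300* (ENSMUSG00000055024, chromosome 15 from 81585351 to 81652077, plus strand) had 84.9, 103.7 and 103.2 FPKM in WT and 108.4, 98.2 and 87.9 FPKM in KO replicates 1, 2 and 3. *Crebbp* (ENSMUSG00000022521, chromosome 16 from 4081328 to 4213997, minus strand) had 19.9, 26.6 and 27.9 FPKM in WT and 25.0, 22.3 and 20.6 FPKM in KO replicates 1, 2 and 3. Both genes were low in WT replicate 1 and KO replicate 3 and high in WT replicates 2 and 3 and KO replicate 1, so the libraries were ordered much alike in the 2 genes, across the genotypes. Their log2 fold changes were 0.013 (SE 0.11) for *Ep300* and −0.12 (SE 0.14) for *Crebbp*, the latter between −0.027 when WT replicate 3 was left out and −0.26 when WT replicate 1 was. *Kat5* (ENSMUSG00000024926, chromosome 19 from 5603014 to 5610237, minus strand) had means of 16.2 ± 1.06 FPKM in WT and 16.6 ± 0.464 in KO cells (SD, n = 3 each), and *Kat7* (ENSMUSG00000038909, chromosome 11 from 95274259 to 95310246, minus strand) ranged from 51.5 to 56.3 FPKM. These were among the steadiest of the 10, with coefficients of variation of 4.70% and 3.80%, and their log2 fold changes were 0.039 (SE 0.074) and −0.028 (SE 0.063). *Kat5* shares 12.1% of its exonic bases with *Rnaseh2c* on the other strand, and how many of its reads come from there was not measured.

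With all 6 libraries, 0 of the 10 genes passed the test, and 0 of the 13312 genes tested did either (0%, limma on log2(FPKM + 1), Benjamini-Hochberg adjusted p under 0.05). The smallest adjusted p over all genes was 0.321, 929 genes had an unadjusted p under 0.05, *Kat2a* being the only one of the 10 among them, and limma's voom on the recovered reads also gave 0 genes, with 833 at an unadjusted p under 0.05. With library weights, which give less weight to libraries far from their group, 1449 genes passed, *Acss1* and *Kat2a* among them. The weights were estimated from these same values, so this fit is not independent of the fit without WT replicate 1 given below. An exact permutation test of a single gene with 3 against 3 libraries cannot go below a two-sided p of 0.1. The 10 genes had 6 positive and 4 negative log2 fold changes with a median of 0.026, beside a median of −0.028 over all genes tested. The same fit was run with WT replicate 1 left out, which leaves WT replicates 2 and 3 against the 3 KO libraries. That library is singled out here because its values are mostly nearer to those of the KO libraries, so the p-values of this fit are too small, and passing its threshold describes how the remaining 5 libraries divide without showing a difference by genotype. *Acss1* passed on the higher side in KO cells and *Kat2a* on the lower, 1 of 10 genes in each direction, where 3.64% of all genes tested passed higher and 5.75% lower. For *Acss1* the log2 fold change was 0.83 (SE 0.12), and it passed in 10 of 12 other settings without that library. *Kat2a* had −0.35 (SE 0.070) and passed in 5 of the same 12 settings. Over these settings the log2 fold change lay between 0.73 and 0.90 for *Acss1* and between −0.38 and −0.30 for *Kat2a*.

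**Figure D3:**
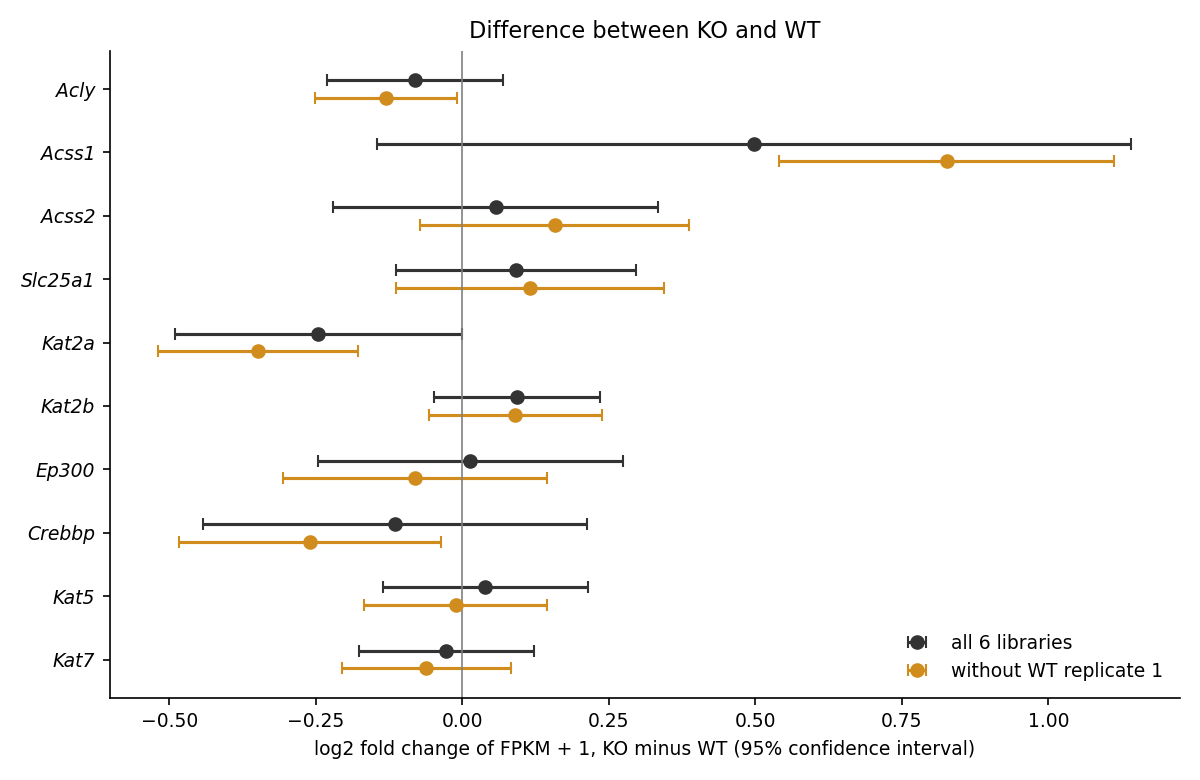
Log2 fold change of FPKM + 1, KO minus WT, for the 10 genes, with 95% confidence intervals from limma, for all 6 libraries (black) and without WT replicate 1 (orange), a library singled out by its values, so that the orange intervals are too narrow. With all libraries the interval of *Acss1* reached from −0.15 to 1.14.

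*Crebbp* and *Acly* also moved without WT replicate 1, to log2 fold changes of −0.26 and −0.13, but neither passed. The remaining 6 genes lay between −0.081 for *Ep300* and 0.16 for *Acss2* in that fit, and *Ep300* and *Kat5* turned to the negative side. The median of the 10 genes turned as well, to −0.037, beside −0.050 over all genes tested. In *Kat2b*, where WT replicate 1 was like the other WT libraries, the difference was the same with and without it (0.093 and 0.090).

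Ratios within a library show how paralogs divided the expression between them. *Kat2a* over *Kat2b* stood at 0.847, 1.03 and 1.08 for WT replicates 1 to 3 and at 0.731, 0.826 and 0.745 for KO replicates 1 to 3, so that all KO ratios were below all WT ratios on the FPKM scale. The mean ratios were 0.984 ± 0.122 in WT and 0.767 ± 0.0515 in KO cells (SD, n = 3 each), and with the longest transcripts as lengths they were 4.08 ± 0.507 and 3.18 ± 0.214, so *Kat2a* was the higher of the pair in all 6 libraries on that scale, and only in WT replicates 2 and 3 on the FPKM scale. *Ep300* over *Crebbp* was 4.26, 3.90 and 3.70 in WT and 4.33, 4.40 and 4.26 in KO replicates 1, 2 and 3 on the FPKM scale. Here all KO ratios were above all WT ratios, but WT replicate 1 (4.2631) and KO replicate 3 (4.2637) had nearly the same ratio. In this ratio the KO libraries differed little among themselves. How often the ratios of other gene pairs separate in this way was not tested. *Acss1* over *Acss2*, the mitochondrial over the cytosolic and nuclear enzyme, was 21.2, 12.6 and 15.4 in WT and 19.5, 22.0 and 23.4 in KO libraries, and it remained above 1 in every library with the longest transcripts as lengths, at 7.70 to 14.3.

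The shared pattern of *Ep300* and *Crebbp* was compared with transcript length, since they have the longest transcripts of the 10 genes (9566 and 10820 bases). Among genes averaging 5 FPKM or more, the 438 with a longest transcript over 8000 bases had a median centred log2(FPKM + 1) of −0.13 in WT replicate 1 and −0.13 in KO replicate 3, against 0.11 in WT replicate 2, 0.11 in WT replicate 3, 0.083 in KO replicate 1 and −0.047 in KO replicate 2. The 1587 genes with transcripts up to 1500 bases had medians between −0.028 and 0.054 in all libraries. In centred values, *Ep300* was at −0.19 and −0.15 in WT replicate 1 and KO replicate 3 and *Crebbp* at −0.23 and −0.18. Long transcripts as a group were thus low in the same 2 libraries, and the part of transcript length or RNA quality in the values of *Ep300* and *Crebbp* was not tested.

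**Figure D4:**
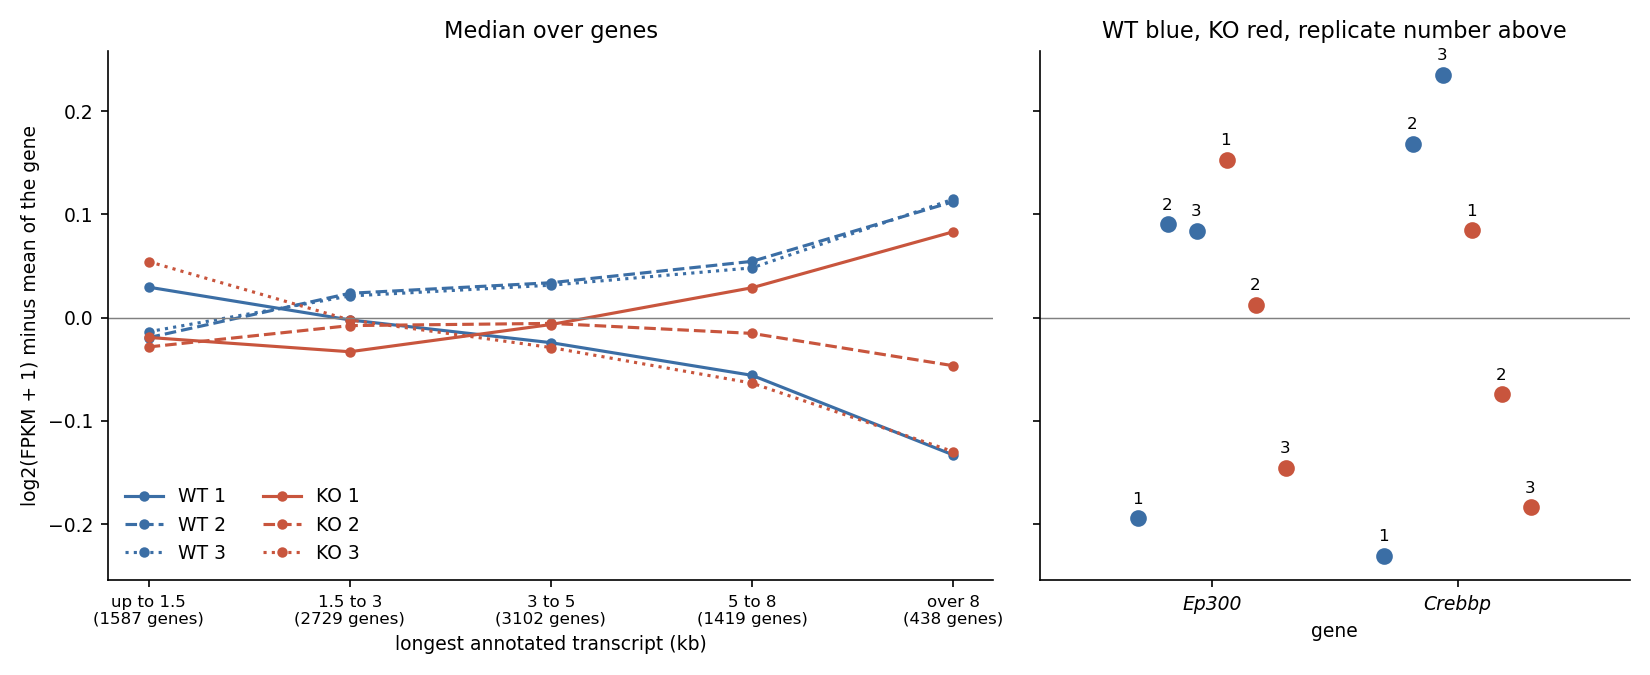
Left, median of log2(FPKM + 1) minus the mean of each gene, by length of the longest annotated transcript in kb, for the 3 WT (blue) and 3 KO (red) libraries, over genes averaging 5 FPKM or more. Right, the same centred value of *Ep300* and *Crebbp* in each library, where WT replicate 1 and KO replicate 3 are the lowest points of both genes, as they are for the 438 genes over 8 kb.

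The other sources of acetyl-CoA, from the pyruvate dehydrogenase complex to fatty acid oxidation, had 21 of 22 listed genes tested, 7 with positive and 14 with negative log2 fold changes and a median of −0.026, close to that of all genes tested, and with median-ratio scaling 11 were positive. None passed with all 6 libraries, and 2 of 21 passed on the lower side without WT replicate 1, where 5.75% of all genes tested did. *Cpt1a*, the carnitine palmitoyltransferase of the outer membrane, had 18.5, 27.7 and 27.5 FPKM in WT and 20.8, 18.8 and 17.3 FPKM in KO replicates 1, 2 and 3. *Slc25a20*, the carnitine-acylcarnitine carrier of the inner membrane, had 14.6, 24.2 and 23.2 FPKM in WT and 16.03, 17.8 and 15.7 FPKM in KO replicates. In both genes WT replicates 2 and 3 were the highest libraries and WT replicate 1 lay with the KO libraries. Their log2 fold changes without WT replicate 1 were −0.52 (SE 0.088) for *Cpt1a* and −0.50 (SE 0.077) for *Slc25a20*, against −0.34 and −0.28 with all libraries. *Cpt2*, a carnitine palmitoyltransferase of the inner membrane, named after its values were seen, stayed between 15.3 and 16.6 FPKM in all 6 libraries. *Crat*, another carnitine enzyme of the list and also named after its values were seen, had 21.0, 15.95 and 14.7 FPKM in WT and 17.2, 21.6 and 19.5 FPKM in KO replicates. Of the users of acetyl-CoA, 7 of 11 listed genes were tested and 0 passed in either fit. *Acat2* and *Hmgcs1*, which open the cholesterol pathway, had the largest differences among them, 0.23 (SE 0.14) and 0.20 (SE 0.084) with all libraries.

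The sterol and fatty acid genes controlled by the SREBP transcription factors, listed with the SREBP genes themselves and *Scap*, had 19 of 20 listed genes tested. *Acly* and *Acss2* are known to belong to these targets but were counted elsewhere. Other lists also held genes of fatty acid and sterol synthesis, so the directions counted here depend on how the lists were cut. With all libraries *Acly* was at −0.080 and *Fasn* at −0.030. *Acss2* (0.057), *Acaca* (0.085), *Hmgcs1* (0.20) and *Acat2* (0.23) were on the higher side. With all libraries 18 of the 19 were higher in KO cells and their median log2 difference was 0.14, where 5604 of the 13312 genes tested were higher, and none passed. The count was 17 or 18 under median-ratio scaling, quantile normalization and voom, and 16 without KO replicate 3, where the median went down to 0.082. Without WT replicate 1, 5 of 19 passed on the higher side and 0 on the lower, where 3.64% and 5.75% of all genes tested did. *Scd1*, a stearoyl-CoA desaturase, had 104.9, 41.3 and 43.1 FPKM in WT and 93.7, 95.2 and 115.4 FPKM in KO replicates 1, 2 and 3, the same division of libraries as in *Acss1*. Its log2 fold change without WT replicate 1 was 1.24 (SE 0.10). *Elovl6* (0.69), *Scd2* (0.96) and *Fads2* (0.93) also passed in that fit, and *Scd2* and *Fads2* had their highest values in KO replicate 3, at 104.6 and 12.01 FPKM. *Insig1*, at 0.62 (SE 0.14), was the remaining gene past the threshold, and *Fads1*, a fatty acid desaturase like *Scd1*, *Scd2* and *Fads2*, was the single lower gene of the 19, at −0.11 (SE 0.076) with all libraries. Both were named after their values were seen. *Acly* did not follow these genes, and *Acss2* was at 2.56 and 2.45 FPKM in WT replicates 2 and 3 against 2.77 to 3.32 in the other 4 libraries. Its counting error of 9.05% at the fewest reads covers counting alone and not the spread between libraries. It therefore cannot decide whether *Acss2* shares this division.

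Further acetyltransferases outside the 10 had 12 negative log2 fold changes of 16 tested, with a median of −0.064, where 7708 of all 13312 genes tested were negative with a median of −0.028. Every KO value was above every WT value in 2 of the 16, *Ncoa1* and *Ncoa3*, named after their values were seen, against 4.06% of all genes tested. The median of the 16 was −0.13 without WT replicate 1 and −0.020 without WT replicate 3. *Kat6b*, which encodes MORF, was the only one past the threshold without WT replicate 1, 1 of 16 where 5.75% of all genes tested passed on the lower side, at −0.37 (SE 0.075), with FPKM values of 6.34, 8.67 and 8.78 in WT and 6.58, 6.26 and 6.69 in KO replicates 1, 2 and 3. The shares of the lists that follow are to be read against the same 5.75%, and with 9 to 24 genes a list, 1 or 2 past the threshold are no result about the list or about the 10 genes. Of the SAGA and ATAC subunits, partners of *Kat2a* and *Kat2b*, 24 of 25 were tested, 15 of them negative with a median of −0.022 and 11 negative with median-ratio scaling, and 1 of 24, *Usp22*, the ubiquitin protease of SAGA, passed on the lower side without WT replicate 1. *Usp22* had 81.6, 128.9 and 127.1 FPKM in WT and 91.5, 86.7 and 80.7 FPKM in KO replicates, a log2 fold change of −0.56 in that fit (SE 0.068). Of the 19 NuA4/TIP60 subunits, partners of *Kat5*, 13 were negative with a median of −0.034 and 10 were negative with median-ratio scaling. In the fit without WT replicate 1, 2 of 19 passed on the lower side, *H2afz*, a histone variant that this complex exchanges, and *Ruvbl2*, an ATPase of the complex. *Ruvbl2* had 52.2, 59.4 and 59.8 FPKM in WT and 50.3, 45.7 and 47.6 FPKM in KO replicates, so its groups did not overlap even with WT replicate 1. Every KO value was below every WT value in 2 of the 19, *Ruvbl2* and *Dmap1*, and in 6.03% of all genes tested. The opposite order held for 1 of the 19, *Mbtd1*, and for 4.06% of all genes tested. *Dmap1* and *Mbtd1* were named after their values were seen. For *Ruvbl2* the log2 fold change with all libraries was −0.25 (SE 0.076, adjusted p = 0.626 from limma).

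The HBO1 and MOZ/MORF subunits, partners of *Kat7* and *Kat6b*, had 9 tested genes with a median of −0.083, and 1 of 9, *Jade3*, passed on the lower side without WT replicate 1, at −0.63 (SE 0.091), where 5.75% of all genes tested did. The median of these subunits was −0.043 without KO replicate 3 and −0.15 without KO replicate 2. Partners of p300 and CBP, 9 of 14 listed genes tested, had 0 genes past the threshold in either fit. With all libraries the largest differences among them were those of *Hif1a* itself, 0.14 (SE 0.12), and of *Creb1*, which encodes the factor that gave CBP its name, −0.14 (SE 0.13). When WT replicate 1 was left out, the values were 0.012 and −0.26. Among readers of acetyl-lysine, 13 of 15 were tested with a median of 0.014, which turned negative with voom and with any library but KO replicate 3 left out, to −0.049 without KO replicate 1. In this list 2 of 13, *Brd3* (−0.50, SE 0.074) and *Atad2* (−0.40, SE 0.089), both bromodomain proteins, passed on the lower side in the fit without that library. *Brd3* had 22.3, 32.9 and 32.9 FPKM in WT and 23.4, 24.2 and 21.2 FPKM in KO replicates 1, 2 and 3. In the heat map of the named genes, those past the threshold without WT replicate 1 mostly have WT replicates 2 and 3 on 1 side and the remaining 4 libraries on the other. They were selected by a test of WT replicates 2 and 3 against the KO libraries. Over all genes tested, WT replicate 1 was nearer the KO mean than that of the other WT libraries in 77.5%.

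**Figure D5:**
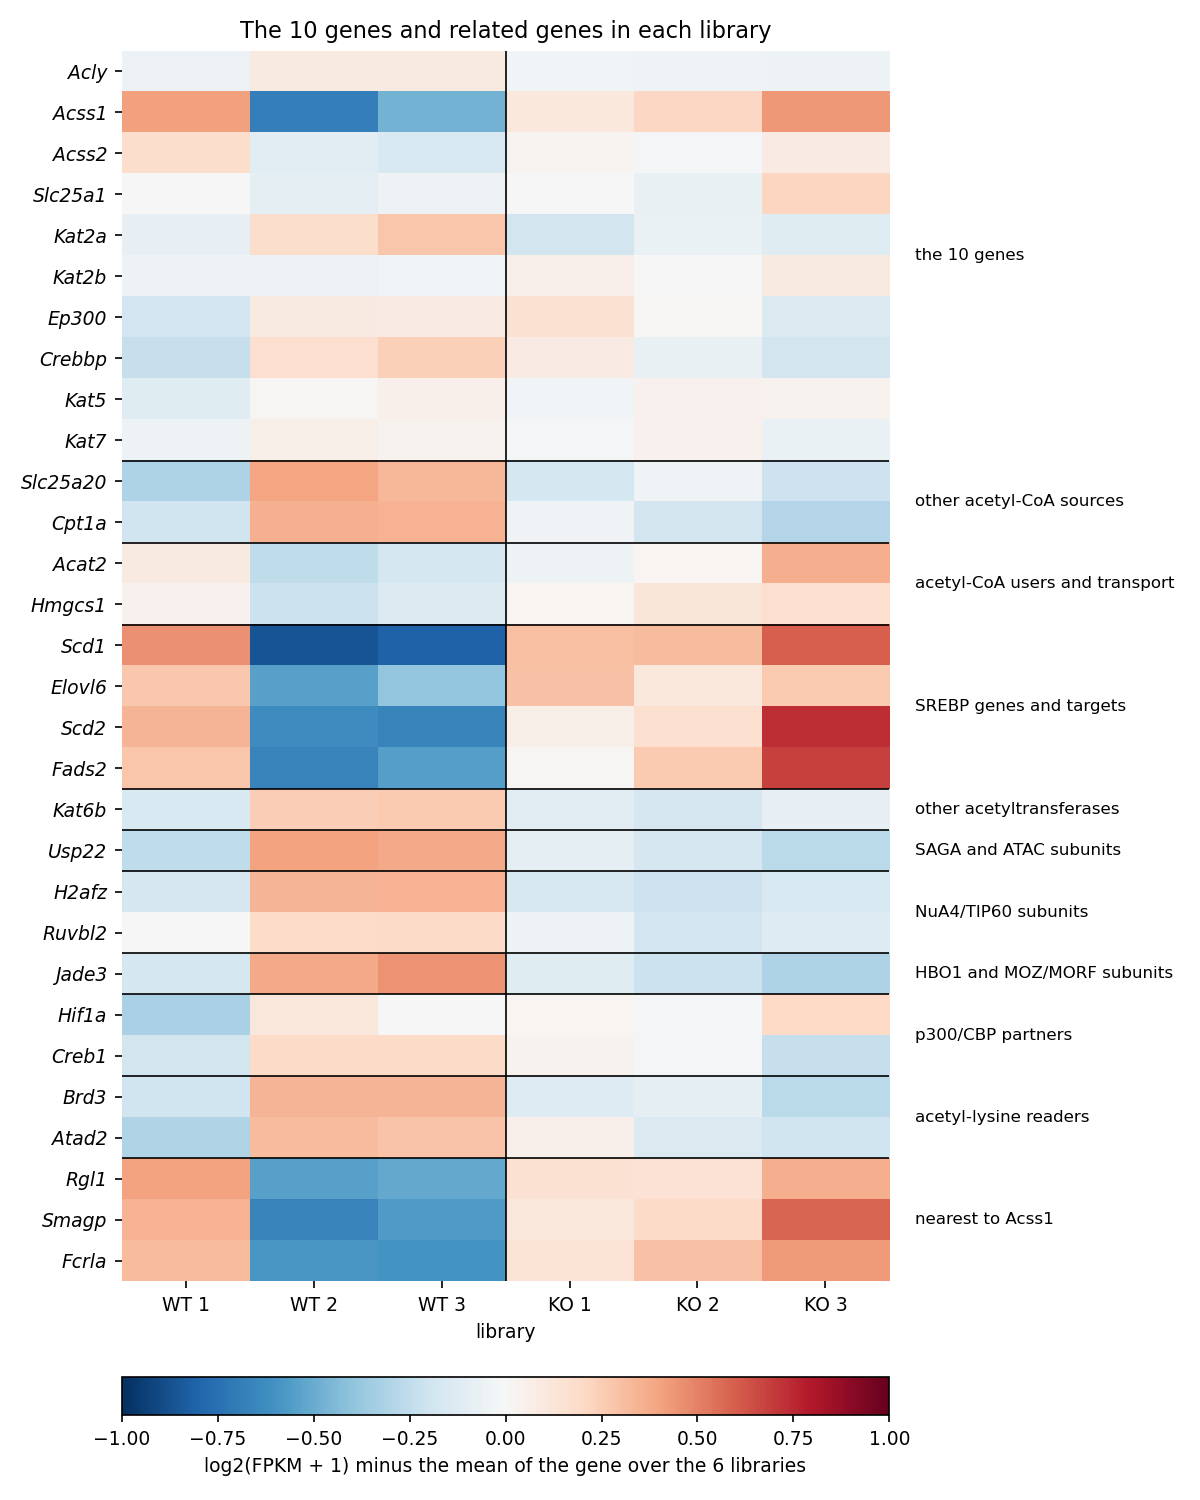
Log2(FPKM + 1) of the 10 genes and of 20 related genes minus the mean of each gene over the 6 libraries (colour, from −1 in blue to 1 in red), for WT replicates 1 to 3 left of the line and KO replicates 1 to 3 right of it. *Acss1* is at −0.69 and −0.47 in WT replicates 2 and 3 and at 0.41 in WT replicate 1, and the rows of *Scd1*, *Rgl1*, *Smagp* and *Fcrla* have the same division. *Rgl1*, *Smagp* and *Fcrla* were chosen as the genes nearest to *Acss1*.

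The genes whose centred values over the 6 libraries were nearest to those of *Acss1*, among 9274 others with a mean FPKM of at least 5, were *Rgl1*, *Smagp* and *Fcrla*, with root mean square differences of 0.076, 0.077 and 0.086 on the log2 scale. *Rgl1* had 10.1, 4.78 and 4.91 FPKM in WT and 8.36, 8.30 and 9.84 FPKM in KO replicates 1, 2 and 3. *Smagp* had 6.91, 2.91 and 3.21 FPKM in WT and 5.75, 6.12 and 8.32 FPKM in KO replicates. *Fcrla*, which encodes a B cell protein related to Fc receptors, had 371.1, 198.9 and 196.7 FPKM in WT and 327.0, 366.1 and 401.6 FPKM in KO replicates. All 3 were low in WT replicates 2 and 3 alone, as *Acss1* was, which follows from their choice by nearness to it.

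Markers of other cells and states also differed between these libraries, and their values stand here beside those of *Acss1* and *Kat2a*, with 3.64% of all genes tested past the threshold on the higher side and 5.75% on the lower without WT replicate 1. Fewer cells of a type and less RNA per cell cannot be told apart in bulk samples. Macrophage markers had 8 of 16 genes tested and their summed FPKM was 2034, 1279 and 1221 in WT and 1691, 1501 and 2910 in KO replicates 1, 2 and 3. Most of it came from *Apoe*, at 1953, 1091, 1092, 1614, 1414 and 2837 FPKM in the same order. *Apoe* went against most of the list, since 6 of the 8 had negative log2 fold changes. *Lyz2* was at 58.3 and 26.2 FPKM in WT replicates 2 and 3 against 0.5996 to 6.18 in the other 4 libraries, *Gpnmb* at 9.75 and 4.05 against 0.156 to 1.41, *C1qa* at 2.98 and 1.33 against 0.0384 to 0.193 and *Cd68* at 12.04 and 8.11 against 5.13 to 6.48. *Adgre1* had the same division, at 91.1 and 81.1 FPKM against 55.5 to 69.7. *Ly6c2*, at 7.48 and 4.90 FPKM against 1.98 to 6.74, and *Mrc1*, at 1.04 and 0.714 against 0.884 to 1.12, were not divided so. *Lyz2*, *Gpnmb* and *C1qa* passed on the lower side without WT replicate 1, 3 of 8. Erythroid markers, 3 of 8 tested, summed to 16.5 and 13.6 FPKM in WT replicates 2 and 3 and to 3.07 to 4.92 FPKM in the other 4 libraries, with *Hbb-bs* at 8.05 and 5.60 against 0.353 to 0.829 and *Hba-a1* at 4.49 and 3.48 against 0.112 to 0.488, both past the threshold on the lower side without WT replicate 1. *Hbb-bt*, the other tested gene of that list, was not divided so, at 2.80 and 2.85 FPKM against 1.42 to 3.77. Neutrophil markers, 4 of 10 tested, summed to 43.4 FPKM in WT replicate 1 and to at most 0.606 in any other library, and *S100a9*, their most abundant gene, was at 19.9 FPKM there and at 0 in the other 5.

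Plasma cell markers, 9 of 10 tested, summed to 1462, 988 and 937 FPKM in WT and 1406, 1044 and 1803 FPKM in KO replicates 1, 2 and 3, so that the sum was lowest in WT replicates 2 and 3. *Mzb1*, the most abundant, was at 494 FPKM in KO replicate 2 as in WT replicate 3, and 2 of 9, *Prdm1* (1.22) and *Jchain* (1.002, log2 fold changes), passed on the higher side without WT replicate 1, where 3.64% of all genes tested did. With all libraries 8 of the 9 had positive log2 fold changes. *Sdc1* went the other way, at −0.14 (SE 0.16), and was at −0.023 without WT replicate 1. B cell markers summed to 4055, 3172 and 3238 FPKM in WT and 3190, 4283 and 3291 in KO replicates, led by *Cd79a*, the gene known as *Mb1*, at 1203, 739 and 779 in WT and 498, 1074 and 611 FPKM in KO replicates. *Cd79b* (0.65) and *Ebf1* (0.33), 2 of the 10 of that list, passed on the higher side in the same fit. Dendritic cell markers, 5 of 8 tested, summed to 14.5 to 23.0 FPKM, with *Flt3* the most abundant over all 6 libraries at 4.74 to 7.74. *Zbtb46* was higher in WT replicates 2 and 3, at 2.25 and 2.06 against 0.914 to 0.990 FPKM in the other 4, and *Ccr9* lower there, at 1.17 and 1.05 against 2.47 to 8.43 FPKM. *Siglech* and *Itgax* of that list were not divided so. *Siglech* was at 2.77 to 5.36 FPKM in WT and at 1.86 to 2.497 in KO libraries. Every KO value of *Siglech* was thus below every WT value, as in 6.03% of all genes tested. *Itgax* overlapped, at 2.95 to 4.22 FPKM in WT and 2.14 to 4.07 in KO libraries. Of the T cell markers, 1 of 10 was tested, *Lck*, at 90.1 to 136.9 FPKM and lowest in WT replicates 2 and 3, and it passed on the higher side without WT replicate 1. NK and innate lymphoid markers, 2 of 8 tested, summed to 1.96 to 3.50 FPKM with *Prf1* at 0.755 to 2.22 and *Gzma* and *Gzmb* at 0 throughout. Stromal and endothelial markers, 3 of 8 tested, summed to 76.9 to 99.0 FPKM, nearly all *Pecam1* at 76.0 to 97.7. *Vcam1* of that list was at 5.39 and 3.75 FPKM in WT replicates 2 and 3 and at 0.272 to 0.580 in the other 4 libraries, the division of *Acss1* and *Kat2a*, and it passed on the lower side without WT replicate 1, as *Zbtb46* did. Y-linked *Ddx3y* was at 43.3 FPKM in KO replicate 2 and at most 0.00945 elsewhere, and *Xist* was at 0.0140 in that library against 167 to 279 FPKM in the other 5. With that library and WT replicate 1 both left out, *Acss1* and *Kat2a* passed the threshold, whereas *Acss1* alone passed when KO replicate 1 or KO replicate 3 was left out with WT replicate 1. The log2 fold change of *Kat2a* was then −0.32 and −0.35, close to that with all KO libraries. The part of these other differences in the values of *Acss1* and *Kat2a* was not tested.

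Promoters were searched for the letters of the hypoxia response element because *Hif1a* is the targeted gene, and those of the 2 genes past the threshold without WT replicate 1 are shown with that of *Slc25a1*, which held the most matches. RefSeq promoters (GRCm38.p6, 250 bases before to 50 after the start) matched all 10 genes, with 12 promoters in all. Either core of the element, ACGTG or GCGTG on either strand, was in a promoter of 6 of the 10 genes, *Acly*, *Acss1*, *Acss2*, *Slc25a1*, *Kat2b* and *Kat5*, that is in 8 of the 12 promoters, *Kat2b* and *Kat5* having 2 each, and in 43.8% of 32851 mouse promoters of the same length. The sterol regulatory element TCACNCCAC was in a promoter of *Kat5* only, and in 1.24% of all promoters. Capitals mark these matches, *Acss1* (chr2:150668191-150668490, minus strand) having GCGTG 24 bases after the start, *Kat2a* (chr11:100712418-100712717, minus strand) having none and *Slc25a1* (chr16:17928170-17928469, minus strand) having 8, of which 2 are the E-box CACGTG read on both strands. A match is a description of the letters and not of a bound site.
Acss1: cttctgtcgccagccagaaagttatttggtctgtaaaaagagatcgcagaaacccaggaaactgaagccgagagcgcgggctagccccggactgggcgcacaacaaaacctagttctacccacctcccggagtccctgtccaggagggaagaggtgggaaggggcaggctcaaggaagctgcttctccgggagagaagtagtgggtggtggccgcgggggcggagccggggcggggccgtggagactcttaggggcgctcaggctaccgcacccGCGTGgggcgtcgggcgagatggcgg
Kat2a: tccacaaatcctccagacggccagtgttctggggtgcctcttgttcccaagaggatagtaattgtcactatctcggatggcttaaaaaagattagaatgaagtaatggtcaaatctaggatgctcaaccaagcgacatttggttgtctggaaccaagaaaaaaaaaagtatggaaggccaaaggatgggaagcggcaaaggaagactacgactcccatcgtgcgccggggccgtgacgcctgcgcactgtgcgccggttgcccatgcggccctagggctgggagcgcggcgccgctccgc
Slc25a1: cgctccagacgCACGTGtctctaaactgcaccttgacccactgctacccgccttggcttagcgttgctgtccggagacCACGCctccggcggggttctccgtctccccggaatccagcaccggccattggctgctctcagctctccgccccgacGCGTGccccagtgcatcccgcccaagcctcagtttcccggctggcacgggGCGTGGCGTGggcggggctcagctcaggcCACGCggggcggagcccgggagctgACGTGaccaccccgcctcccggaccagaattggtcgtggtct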

How the data were processed

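The authors cleaned the paired-end reads, used TopHat for alignment against mm10 and HTSeq for counting, and deposited 1 FPKM value per gene and library. The annotation release, the strand option and the treatment of reads with several alignments are not given in the sources used here. Groups and replicate numbers came from the sample titles. GENCODE vM21 gave symbols for 46488 of 46983 gene IDs. Read numbers were recovered from the FPKM steps, and 94.8% to 95.2% of low values (up to 20 reads) were whole within 0.01 reads. At 25030210 to 37222477 reads per library, genes below a mean FPKM of 0.5 were not tested.

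Differences were tested with limma 3.58.1 in R 4.3.3 (lmFit, eBayes with trend) on log2(FPKM + 1), a pseudocount of 1, without covariates, over 13312 genes, with Benjamini-Hochberg adjustment and a threshold of 0.05, and the method was tested on simulated data of 3 against 3 libraries. The members and lists were chosen with earlier results of these data known, WT replicate 1 included. From each related list, up to 4 genes called in either fit were named, otherwise the 2 with the largest log2 fold change. Individual genes of the marker lists were named after their values were seen. Python 3.11.15 and matplotlib 3.10.9 recovered reads and drew the plots.

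Alternatives were another pseudocount (0.1), filter, scaling or variance model, a replicate block, each library left out, voom, library weights and, added after seeing the data, FPKM on the longest transcript and pairs of libraries left out.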

Additional observations from a re-analysis of the deposited data

How the results depend on the processing

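For the 10 genes, 169 log2 fold changes were computed under 17 alternatives, and 158 kept their direction and their side of the threshold. *Acss1* and *Kat2a* passed the threshold in 2 of 17 each, without WT replicate 1 and with library weights, which are not independent settings. The direction turned in 7: *Kat7* was at 0.0064 with median-ratio scaling, *Ep300* at −0.081 without WT replicate 1, −0.060 without KO replicate 1 and −0.034 with library weights, *Kat5* at −0.012 without WT replicate 1 and −0.0092 with library weights, and *Acss2* at −0.0052 without WT replicate 3. At the other end, *Acss2* was at 0.16 without WT replicate 1, *Ep300* at 0.089 without KO replicate 3 and *Kat5* at 0.075 without WT replicate 3. The cause of the turned directions was not tested. *Acss2* has no value at a mean FPKM of at least 5.

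With 1 library left out, 0 to 2 of the 10 genes and 0 to 1251 of all genes were called, the upper values without WT replicate 1 and the other fits giving 0 or, without KO replicate 1, 1 gene. Library weights, which give less weight to libraries far from their group and were estimated from the same values, called 2 of the 10 and 1449 of all genes. The cause of these higher counts was not tested. The replicate block called 0 of the 10 and 0 of all genes. Same-numbered libraries had correlations of −0.099, 0.14 and −0.28 in their deviations from the group means, and not every library correlated best with its own number. These correlations cannot decide whether the numbers pair the libraries. The deviations within a group add up to 0, and WT replicate 1 lies far from the other WT libraries.

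WT replicate 1 was singled out by its values, so the p-values of fits without it are too small. Without it, where 2 of the 10 were called, the count was 0 with all genes above 0 (25717 tested), 0 with the replicate block (3 of all genes called), and 1 with median-ratio scaling, with quantile normalization, with eBayes without trend, and when KO replicate 1 or KO replicate 3 was also left out; the cause was not tested. At 122 to 237 reads per library, depth limits *Acss2* most.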
